A study of Mus musculus with 16 samples.

Results

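Both experiments of this series sampled liver that had not been made to regrow, and the comparison here sets these baseline samples side by side: 8 of the 16 samples, 3 olive oil livers and 5 livers resected at day 0 of a partial hepatectomy (PH, the surgical removal of part of the liver). They were chosen by their treatment labels alone. All were whole liver of male wild-type C57BL/6J mice, snap-frozen before RNA extraction, with no age given in the sources used here. The olive oil mice were the controls of a carbon tetrachloride (CCl4) injection: they had received olive oil intraperitoneally at 2 µL per g, and their livers were taken 3 days later. Titles of these 3 samples begin with the name of the CCl4 experiment, and their treatment label decided the group. On a scale common to all 16 samples, the division marker Mki67 ran from 1.42 to 2.42 CPM in them against 65.4 to 187 CPM in the CCl4 livers, where CPM stands for counts divided by the scaled size of the library. The PH day 0 samples were tissue removed at surgery, with no earlier treatment named, and their labels number the animals 12 to 16. Oil, time of day, handling, anaesthesia or surgery and the experiment itself cannot be told apart in this comparison, because each differs between the groups as a whole or is not recorded. No label states that the 3 olive oil samples came from separate animals, so p-values measure the spread between these samples.

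Hepatocytes, the main cells of the liver, run a circadian clock in which the activators BMAL1 (encoded by Arntl) and CLOCK switch on the genes of their own repressors, the PER and CRY proteins and the REV-ERB receptors, so that activator and repressor transcripts peak at different times of day. Feeding and fasting act on the same genes and on those of fat, sterol and drug metabolism, many of which also cycle over the day. Whole liver further holds sinusoidal endothelial cells, resident macrophages called Kupffer cells, fat-storing stellate cells and blood, and all of these contribute transcripts to a bulk measurement.

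Total counts were 4295169 to 5221957 in the olive oil samples and 3271398 to 8647503 in the PH day 0 samples, so a count of 3 corresponded to 0.363 to 0.943 CPM with TMM scaling. Pearson correlations of log2(CPM + 1) were 0.9637 to 0.9736 within groups and 0.9504 to 0.9651 between them. The hepatocyte products albumin (Alb) and apolipoprotein A-I (Apoa1) ranked 1 and 14 by mean CPM. PH day 0 replicate 12 stood apart in clock and inflammatory genes, as given below, though its median correlation with the other 4 PH day 0 samples (0.9688) lay inside the range of that group (0.9652 to 0.9709). Replicate 12 was also the deepest library, with 8647503 counts against at most 4453616 in the other 4. Its title is the only PH day 0 title with the letter N after the number, which is not explained. Levels are CPM as mean ± SD (n = 3 olive oil, n = 5 PH day 0), changes are log2 fold changes of olive oil minus PH day 0 ± SE, and PH day 0 values are listed in the order of replicates 12, 13, 14, 15 and 16.

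The baseline livers differed in 445 of 10746 tested genes, or 4.14% (edgeR's quasi-likelihood test, with p-values adjusted after Benjamini and Hochberg and a threshold of 0.05). Of these, 253 were higher in olive oil (2.35% of tested genes) and 192 were lower (1.79%). The changes were mostly moderate, with a median size of 0.725 on the log2 scale among called genes against 0.199 among all tested, and 68 and 59 genes passed by at least 1 in each direction. In 420 of the 445 the values of the groups did not overlap, against 1301 (12.1%) of all tested genes. Without olive oil replicate 3 only 181 genes were called, 117 of them higher and 64 lower. Scaling by library size alone put 37.2% of called genes on the higher side against 56.9% here, and moved the median change of all tested genes by -0.079. None of the 445 called genes changed sign under the alternatives tried. Of the 115 called genes examined singly, 51 passed with every library left out in turn, 62 did not pass without olive oil replicate 3 and 16 did not without PH day 0 replicate 12.

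**Figure D1:**
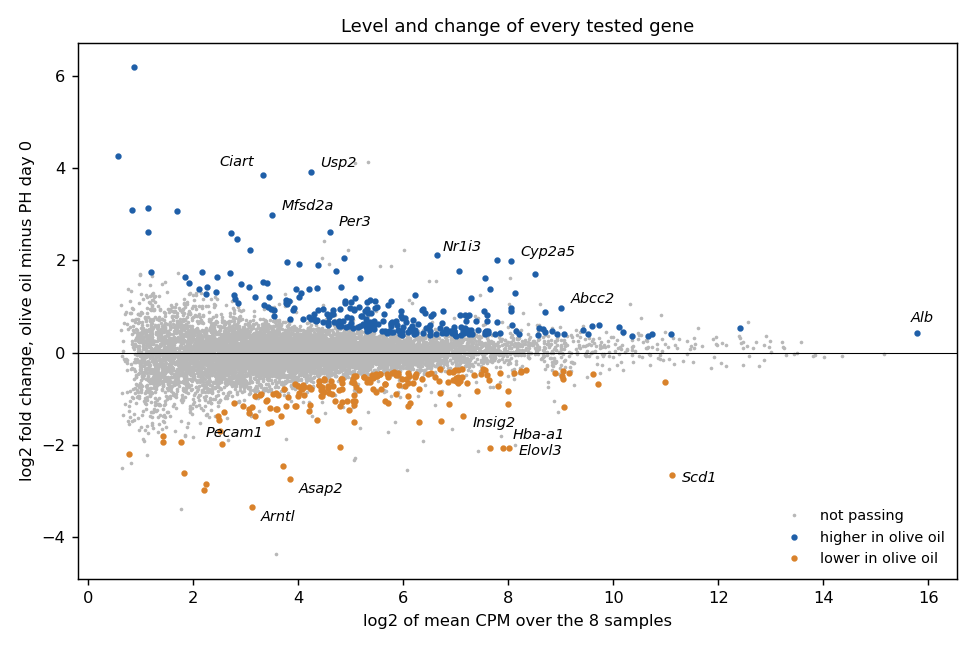
Log2 fold change (olive oil minus PH day 0) against the log2 of mean CPM for the 10746 tested genes, with 253 called higher in blue, 192 called lower in orange and the rest in grey. Clock genes (Usp2, Ciart, Per3, Arntl) lie at both extremes, and the abundant Scd1 lies far below 0.

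**Figure D2:**
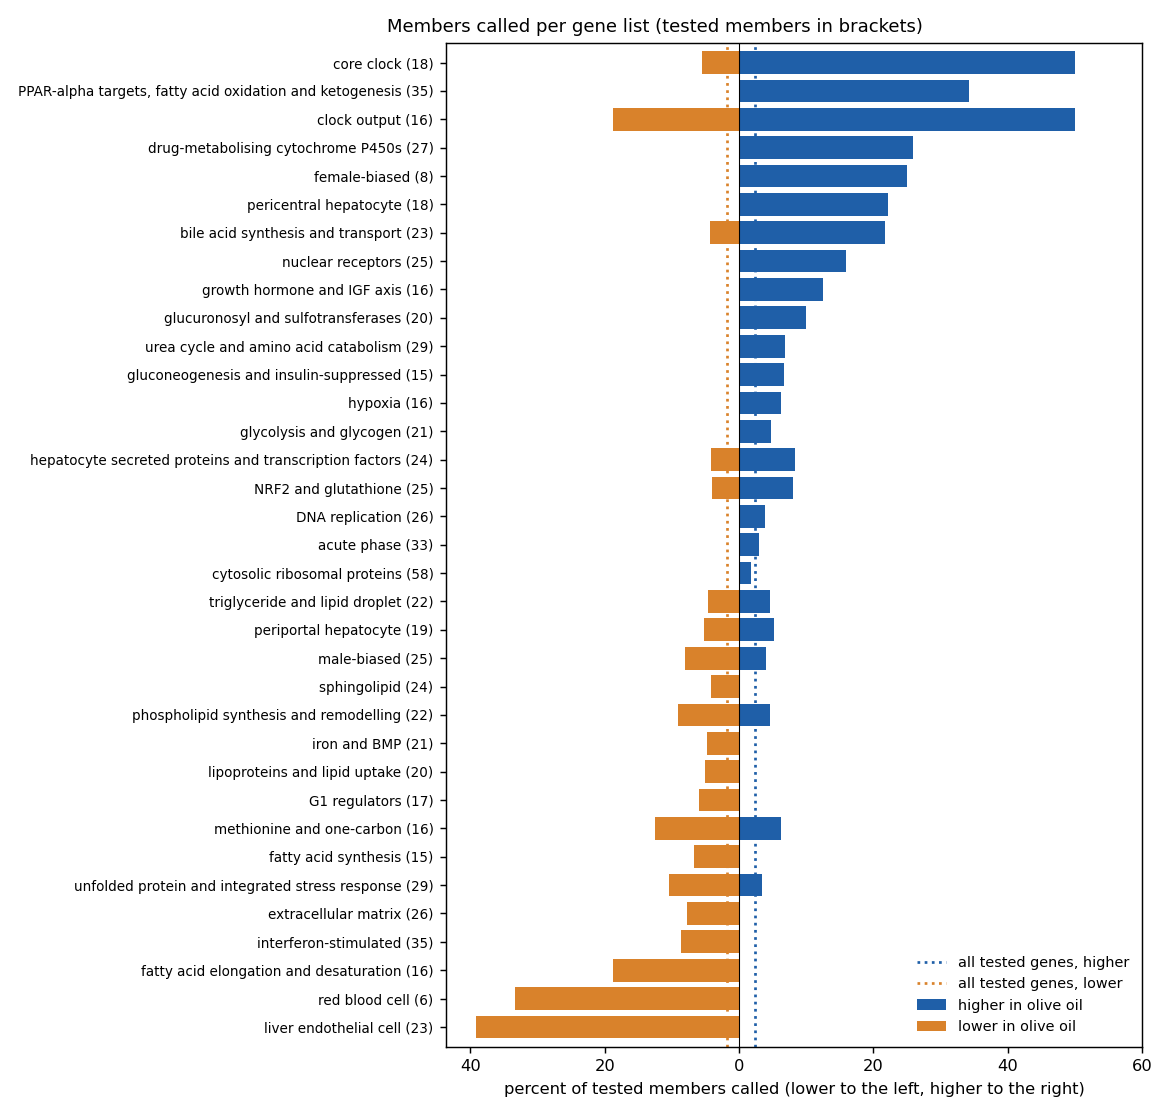
Percent of tested members called higher (right, blue) and lower (left, orange) in olive oil, for each gene list with at least 5 tested members and 1 call; the dotted lines mark 2.35% and 1.79%, the shares over all tested genes. The clock lists and the fatty acid oxidation list reach farthest to the right, and the endothelial list farthest to the left.

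Many circadian genes differed between the groups. In the core clock list, 9 of 18 tested members were higher in olive oil and 1 was lower, with a median of 0.82 against -0.004 for all tested genes. In the list of clock output genes, which the clock drives in liver, 8 of 16 were higher and 3 lower, with a median of 1.00. Arntl, the gene of the activator BMAL1, was lower in olive oil. The genes of the repressors Per2, Per3, Cry2, Ciart and Nr1d2 and of the D-box binding activators Tef and Hlf were higher, while Per1, Cry1, Nr1d1 and Dbp did not pass. The count of higher core members was 5 without olive oil replicate 3. That of lower members was 2 without olive oil replicate 2 or PH day 0 replicate 14, or with library size scaling.

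Arntl (chromosome 7, 113207465 to 113314126, plus strand of GRCm38) was at 1.61, 1.62 and 0.648 CPM in the olive oil livers and at 24.8, 9.11, 10.3, 9.94 and 11.3 CPM in the PH day 0 livers. Every olive oil value lay far under the lowest PH day 0 value, and replicate 12 was the highest of all. The mean was 1.29 ± 0.56 CPM against 13.1 ± 6.59 CPM, a change of -3.35 ± 0.45 (adjusted p = 0.000225). Npas2, which can take the place of CLOCK as partner of BMAL1, had too few counts for the test, with 2 counts in olive oil and 48 at PH day 0, summed over samples. Clock itself was at 23.1 ± 2.87 CPM against 33.3 ± 4.84 CPM and did not pass (-0.52 ± 0.16, adjusted p = 0.0678), although it passed with library size scaling (adjusted p = 0.0328), with no filter on low counts (adjusted p = 0.0416) and without PH day 0 replicate 14 (adjusted p = 0.0344).

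The period genes encode repressors that bind BMAL1 and CLOCK. Per3 was at 45.9, 60.4 and 44.9 CPM in olive oil and at 3.39, 5.92, 11.1, 12.7 and 9.43 CPM at PH day 0, a change of 2.63 ± 0.34 (adjusted p = 0.00265) with no overlap. Per2 was at 38.2 ± 1.13 CPM against 10.5 ± 5.72 CPM (1.91 ± 0.36, adjusted p = 0.0226), and it no longer passed when olive oil replicate 1, 2 or 3 or PH day 0 replicate 13, 15 or 16 was left out (adjusted p = 0.0611 to 0.0917). Per1 was at 29.5, 51.9 and 54 CPM against 0.847, 10.5, 10.6, 13.5 and 8.8 CPM. Its groups were also apart, but replicate 12 lay far below the other PH day 0 livers and the gene did not pass (2.43 ± 0.63, adjusted p = 0.106), whereas without replicate 12 it did (2.04, adjusted p = 3.68e-06), as it did with DESeq2 and limma-voom (adjusted p = 0.0305 and 0.00647). Ciart, a repressor also known as CHRONO, was at 19.6, 24.1 and 27.9 CPM against 0.363, 0, 4.43, 2.33 and 1.89 CPM (3.86 ± 0.63, adjusted p = 0.0136). Its PH day 0 values were near the level of a few counts, and the gene fell short once olive oil replicate 3 was left out (adjusted p = 0.0722).

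Among the cryptochromes, Cry2 was higher in olive oil (43.3 ± 2.58 against 25.4 ± 5.11 CPM, 0.75 ± 0.16, adjusted p = 0.00581, 0.0515 without olive oil replicate 3), while Cry1 was at 3.82 ± 1.95 against 4.82 ± 0.641 CPM and did not pass. The REV-ERB receptors, repressors of Arntl, parted. Nr1d2 was at 87.2, 80.8 and 84.7 CPM against 39.7, 50.6, 50, 53.7 and 50.3 CPM and was higher in olive oil (0.79 ± 0.11, adjusted p = 0.000183), with replicate 12 again the lowest of its group. Nr1d1 was at 109, 77.4 and 111 CPM against 123, 117, 129, 121 and 138 CPM. These groups did not overlap either, with olive oil on the lower side, yet the gene did not pass (-0.34 ± 0.12, adjusted p = 0.109). The competing activator Rora was higher in olive oil (0.48 ± 0.13, adjusted p = 0.0371). Rora lost its call when olive oil replicate 1, 2 or 3 or PH day 0 replicate 14, 15 or 16 was omitted (adjusted p = 0.0624 to 0.17), and with library size scaling or limma-voom (adjusted p = 0.11 and 0.0511). In a fit of all 16 samples, where the spread of every group is shared, Nr1d2 and Rora no longer passed (adjusted p = 0.126 and 0.101).

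Dbp, Tef and Hlf encode activators that bind D-box sites and pass the rhythm on to metabolic genes, and Nfil3 encodes their opposing repressor. Tef was at 229, 226 and 267 CPM in olive oil and at 38.7, 76.1, 77, 92 and 71.3 CPM at PH day 0 (1.77 ± 0.24, adjusted p = 0.0065), and Hlf was at 55.8 ± 8.49 against 30.7 ± 3.99 CPM (0.85 ± 0.14, adjusted p = 0.000628). Dbp was at 127, 109 and 144 CPM against 5.2, 27.1, 47.3, 42.5 and 16.7 CPM. All 3 olive oil values lay above all 5 others, but the PH day 0 values ran from 5.2 to 47.3 CPM and the gene did not pass (2.22 ± 0.61, adjusted p = 0.122). Dbp passed without replicate 12 (1.91, adjusted p = 0.0445), with DESeq2 (adjusted p = 0.0214) and with limma-voom (adjusted p = 0.00311). Nfil3 was at 15.8 ± 1.61 CPM in olive oil and 52.5, 18.4, 11.1, 11.2 and 16.3 CPM at PH day 0. Only replicate 12 stood clear of the olive oil range upwards, the change was -0.54 ± 0.61, and without that sample it was 0.15.

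**Figure D3:**
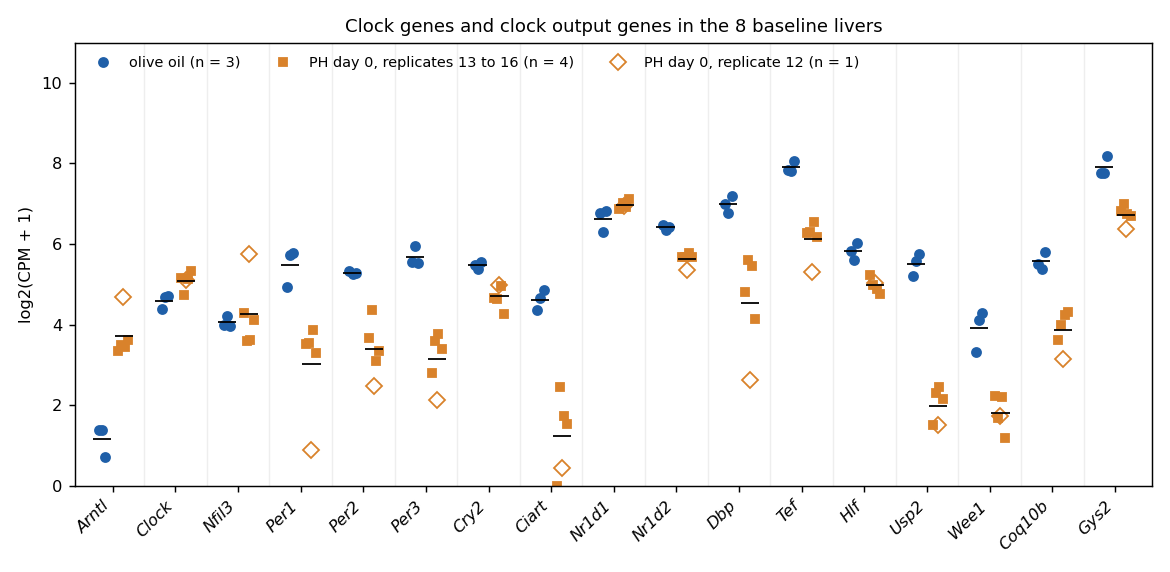
Levels of clock and clock output genes as log2(CPM + 1) in each of the 3 olive oil livers (circles) and 5 PH day 0 livers (squares, with replicate 12 as an open diamond); black bars are group means. Arntl is lower in every olive oil liver, Per2, Per3, Ciart, Tef and Usp2 are higher, and replicate 12 lies at the far end of the PH day 0 range for Arntl, Nfil3, Per1, Per3, Dbp and Tef.

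The promoters of 4 of these called genes are shown because each holds letters that match a known kind of clock site, and they were chosen for holding a match. BMAL1 and CLOCK bind the E-box CACGTG, the D-box factors bind TTATGTAA and the REV-ERB and ROR receptors bind sites with the core TAGGTCA. In the 300-base RefSeq promoters (250 bases before to 50 after the start, GRCm38.p6, both strands searched), an E-box stood in 7.15% of 32851 promoters, a D-box in 0.938% and the ROR core in 2.61%. Of the 10 called core clock genes, 8 had a promoter in the table, and an E-box was present for 2 of them, a D-box for 1 and the ROR core for 1. The Ciart promoter (chr3:95882179-95882478, minus strand) held 3 E-boxes, at 116, 58 and 44 bases before the start. Per3 (chr4:151044616-151044915, minus strand) held 2 D-boxes, 205 and 158 bases before it. Each of the Tef promoters held 1 E-box, which in the one printed (chr15:81802423-81802722, plus strand) lay 127 bases before the start. An Arntl promoter (chr7:113207261-113207560, plus strand) held the ROR core 30 bases after the start. The promoters in the table for Cry2, Nr1d2, Rora and Hlf and the other Arntl promoter held none of these letters. Capitals mark these matches, which describe letters and show no binding:
Ciart: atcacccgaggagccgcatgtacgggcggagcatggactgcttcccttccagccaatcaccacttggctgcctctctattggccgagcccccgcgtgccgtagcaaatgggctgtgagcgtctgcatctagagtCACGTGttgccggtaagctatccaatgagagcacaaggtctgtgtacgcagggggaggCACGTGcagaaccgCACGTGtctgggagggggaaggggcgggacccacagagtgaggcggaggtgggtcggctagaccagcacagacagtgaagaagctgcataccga
Per3: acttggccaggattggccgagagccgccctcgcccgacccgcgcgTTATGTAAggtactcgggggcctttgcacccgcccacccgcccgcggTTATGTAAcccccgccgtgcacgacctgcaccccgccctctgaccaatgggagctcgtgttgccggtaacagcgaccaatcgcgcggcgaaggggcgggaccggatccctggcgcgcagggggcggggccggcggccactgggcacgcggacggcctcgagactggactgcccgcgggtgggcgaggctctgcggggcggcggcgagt
Tef: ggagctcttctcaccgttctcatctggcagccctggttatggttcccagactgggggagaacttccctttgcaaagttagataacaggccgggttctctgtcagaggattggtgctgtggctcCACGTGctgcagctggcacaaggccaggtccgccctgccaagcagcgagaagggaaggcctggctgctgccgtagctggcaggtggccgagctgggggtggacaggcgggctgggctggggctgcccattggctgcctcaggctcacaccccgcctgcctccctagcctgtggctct
Arntl: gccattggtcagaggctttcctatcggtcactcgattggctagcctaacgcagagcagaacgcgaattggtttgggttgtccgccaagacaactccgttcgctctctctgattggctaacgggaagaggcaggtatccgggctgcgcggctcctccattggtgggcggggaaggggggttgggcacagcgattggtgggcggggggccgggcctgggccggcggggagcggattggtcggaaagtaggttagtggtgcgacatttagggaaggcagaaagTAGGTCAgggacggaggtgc

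Clock output genes held the change with the smallest adjusted p of all tested genes. Usp2, a deubiquitinase with a strongly rhythmic transcript in liver (chromosome 9, 44067021 to 44095627, plus strand), was at 36.2, 46.8 and 52.5 CPM in olive oil and at 1.82, 1.82, 3.94, 4.44 and 3.46 CPM at PH day 0. The 15.2-fold higher level (3.92 ± 0.24, adjusted p = 2.05e-09) held with each library left out. Wee1, a kinase that delays entry into mitosis and has E-boxes in its known control region, was at 8.99, 16.4 and 18.6 CPM against 2.3, 3.64, 2.22, 3.6 and 1.26 CPM (2.47 ± 0.32, adjusted p = 6.34e-05). The coenzyme Q protein Coq10b (46.7 ± 6.98 against 14.1 ± 4.58 CPM, 1.77 ± 0.22), the liver glycogen synthase Gys2 (241 ± 43.1 against 106 ± 16.3 CPM, 1.19 ± 0.13) and Por, the reductase that feeds electrons to cytochrome P450s (443 ± 78.7 against 181 ± 38.4 CPM, 1.29 ± 0.16), were all higher in olive oil without overlap. Lower in olive oil was Insig2, which holds the sterol sensor in the endoplasmic reticulum, at 83.7, 60 and 69.2 CPM against 186, 205, 145, 203 and 179 CPM (-1.37 ± 0.13, adjusted p = 1.76e-06). Insig2 and Por no longer passed in the fit of all 16 samples (adjusted p = 0.131 and 0.077). Upp2, a uridine phosphorylase, was at 648 ± 73.5 against 198 ± 61.4 CPM (1.71 ± 0.30, adjusted p = 0.0294), and Avpr1a, a vasopressin receptor, at 19.6 ± 1.74 against 34 ± 7.57 CPM (-0.79 ± 0.18, adjusted p = 0.0106). Upp2 missed the threshold when any library but PH day 0 replicates 13 and 14 was left out (adjusted p = 0.052 to 0.128), and Avpr1a when olive oil replicate 2 or 3 was (0.0642 and 0.0542) or in the fit of all 16 samples (0.0883). The count of higher output genes was 5 without olive oil replicate 2 or 3, and that of lower ones 1.

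Levels in the other groups of the series place these values, given here with no test and on a scale common to all 16 samples. Arntl ran from 0.708 to 1.76 CPM in olive oil, from 14 to 19.6 CPM in the CCl4 livers of the same injection experiment, from 9.93 to 26.9 CPM at PH day 0 and from 12.9 to 27.3 CPM at PH day 3. Usp2 ran from 39.4 to 57.3 CPM in olive oil and reached at most 17.5, 4.85 and 11.3 CPM in those 3 groups. Per3 and Tef likewise had their lowest olive oil value (49.1 and 245 CPM) above the highest value of any other group. For these 4 genes the olive oil values, not the PH day 0 values, lay apart from those of the other groups. The PH day 0 and PH day 3 livers share the replicate numbers 12 to 16, and the CCl4 livers had received the toxin. The series thus holds no further untreated group, and which baseline is the unusual one was not tested. Not every clock gene had olive oil as the group apart. Nr1d1 was highest at PH day 0 (127.4 to 150.3 CPM), against at most 121.2 CPM in olive oil, 55.55 CPM in CCl4 and 101.2 CPM at PH day 3. The olive oil values of Per1 (from 32.09 CPM) and Wee1 (from 9.776 CPM) overlapped those of the CCl4 livers (up to 42.44 and 19.21 CPM).

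Lipid genes were called in both directions. Of 35 tested members of the list of PPAR-alpha targets, oxidation and ketogenesis genes, 12 were higher and none was lower, with a median of 0.42. Changes lay above 0 for 32 members and below 0 for 3. The receptor itself, Ppara, which switches on fat burning during fasting, was at 81.9, 81.2 and 68.1 CPM in olive oil and at 34.5, 50.3, 33.2, 37.2 and 33.6 CPM at PH day 0 (1.03 ± 0.14, adjusted p = 7.01e-05). Vnn1, a pantetheinase and known target of the receptor, followed at 25.3 ± 5.9 against 9.68 ± 3.51 CPM (1.37 ± 0.24, adjusted p = 0.00229), and Eci2, an isomerase of unsaturated fatty acid breakdown, at 208 ± 21.2 against 119 ± 26 CPM (0.81 ± 0.14, adjusted p = 0.00333). Eci2 did not pass in the fit of all 16 samples (adjusted p = 0.257). The thioesterase Acot4 was at 33.9 ± 10.3 against 12.4 ± 5.08 CPM (1.40 ± 0.29, adjusted p = 0.0231), short of the threshold when olive oil replicate 1 or 3 or PH day 0 replicate 14 was left out (0.0501 to 0.0805). The mitochondrial oxidation enzymes Acadl, Acaa2, Eci1 and Decr1 rose by less, from 0.41 to 0.49, and each of their calls was lost when olive oil replicate 1 or 3 or PH day 0 replicate 15 was left out, and with library size scaling.

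Cyp4a14, a fatty acid hydroxylase and a sensitive target of PPAR-alpha, was at 33.4, 84.9 and 175 CPM in olive oil and at 1.94, 15.5, 7.14, 3.17 and 0.943 CPM at PH day 0. The groups were apart, but the olive oil values themselves spread widely, and the gene did not pass (4.13 ± 0.83, adjusted p = 0.0536) except with DESeq2 (adjusted p = 0.000851), with limma-voom (adjusted p = 0.00647) or without PH day 0 replicate 13 (adjusted p = 0.0484). Cpt1a, the gate of mitochondrial fat import (394 ± 7.83 against 310 ± 72 CPM), did not pass. Pdk4 went the other way, lower in olive oil at low levels, and passed only with no filter on low counts (-1.66, adjusted p = 0.0462). The number of higher members of this list was sensitive to single libraries, at 4 without olive oil replicate 1, 3 without olive oil replicate 3, and 19, 5 and 7 without PH day 0 replicates 13, 15 and 16, and it was 5 with library size scaling.

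In the elongation and desaturation list, 3 of 16 members were lower in olive oil and none higher, with a median of -0.04 and with 7 members above and 9 below a change of 0. Scd1, the desaturase that makes oleate, was at 671, 528 and 359 CPM in olive oil and at 1856, 1915, 3825, 4928 and 3815 CPM at PH day 0. Every olive oil liver lay below every PH day 0 liver, and the level was 6.29-fold lower (-2.65 ± 0.46, adjusted p = 0.0323). Elovl3, an elongase whose transcript cycles with the clock, was at 81.6, 83.7 and 95.7 CPM against 604, 293, 277, 308 and 337 CPM (-2.07 ± 0.31, adjusted p = 0.0131), and Elovl5, an elongase of polyunsaturated fatty acids, at 170 ± 25.7 against 306 ± 65.2 CPM (-0.85 ± 0.17, adjusted p = 0.0118). Scd1 missed the threshold without any of the olive oil livers or PH day 0 replicates 14 or 16 (0.0653 to 0.134), Elovl3 without olive oil replicates 1, 2 or 3 (0.066 to 0.0702) and Elovl5 without olive oil replicates 2 or 3 (0.0613 to 0.0668), so that this list had 1 lower member without olive oil replicate 1 and 0 without replicate 2 or 3. In the fit of all 16 samples Scd1 and Elovl5 did not pass (adjusted p = 0.222 and 0.101).

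Insig2, which was lower in olive oil, was the only called member of 15 in the fatty acid synthesis list, whose median was -0.28 with 12 members below 0. Fatty acid synthase (Fasn) was at 758, 394 and 263 CPM against 460, 304, 948, 537 and 679 CPM, with overlapping groups (-0.31 ± 0.48, adjusted p = 0.826). Srebf1, the lipogenic activator, was at 308 ± 34.4 against 194 ± 61.8 CPM (0.66 ± 0.25, adjusted p = 0.226) and passed with DESeq2 (adjusted p = 0.0292) and without PH day 0 replicate 14 (adjusted p = 0.00216). The cholesterol synthesis list had a median of -0.21, with 22 of 25 members below 0. None of the 25 passed with edgeR, 2 had an unadjusted p under 0.05, and DESeq2 and limma-voom called 1 each, the mevalonate pathway kinase Pmvk (-0.85 ± 0.25, adjusted p = 0.0947 with edgeR, 0.0427 in the fit of all 16 samples and 2.84e-07 with no filter on low counts). Without olive oil replicates 1 and 2 the list held 2 and 1 lower members.

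Among membrane lipid genes, calls went both ways and not all of them held in every fit. Choline kinase (Chka), which starts phosphatidylcholine synthesis from choline, was at 16.4, 17.2 and 17.1 CPM in olive oil and at 45.7, 46, 37.9, 31.9 and 37.7 CPM at PH day 0 (-1.24 ± 0.16, adjusted p = 5.19e-05). The olive oil values lay within 1 CPM of each other and all below the others. The ethanolamine kinase Etnk2 was higher (342 ± 16.1 against 227 ± 32.4 CPM, 0.59 ± 0.11, adjusted p = 0.00309, 0.0509 in the fit of all 16 samples). Lower was Selenoi, which completes phosphatidylethanolamine synthesis (41 ± 1.87 against 59.5 ± 10.3 CPM, -0.54 ± 0.14, adjusted p = 0.0284), a call lost on leaving out any olive oil liver or PH day 0 replicate 12 or 16, or with limma-voom (0.0595 to 0.133). These were the 3 called members of 22, where 4.14% of all tested genes were called. In triglyceride synthesis and storage 2 of 22 passed, the phosphatidate phosphatase Lpin2 upwards (264 ± 20.2 against 141 ± 26.2 CPM, 0.91 ± 0.13, adjusted p = 0.000268, 0.261 in the fit of all 16 samples) and the acyltransferase Agpat2 downwards (154 ± 22.9 against 216 ± 32.8 CPM, -0.49 ± 0.12, adjusted p = 0.0273), the latter not once olive oil replicate 2 or 3 was left out (0.109 and 0.197). The number of higher triglyceride genes was 2 without olive oil replicate 2 and 3 without PH day 0 replicate 14, and that of higher phospholipid genes 2 without PH day 0 replicate 12. Sphk2, which makes sphingosine 1-phosphate (37.8 ± 13.5 against 70.3 ± 6.66 CPM, -0.90 ± 0.18, adjusted p = 0.011), and its carrier in plasma Apom (187 ± 14.9 against 256 ± 17.1 CPM, -0.45 ± 0.10, adjusted p = 0.00963) were both lower, the first not without olive oil replicate 2 (0.0658) and the second not without olive oil replicate 3 (0.0915).

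The transporters Abcc2, Abcg5 and Abcg8 were higher in olive oil, and the bile salt export pump Abcb11 was lower. In the bile acid list, 5 of 23 members were higher and 1 lower, with a median of 0.20. Abcc2, the canalicular exporter of conjugated bilirubin and drugs, was at 738, 742 and 753 CPM in olive oil and at 382, 375, 433, 338 and 375 CPM at PH day 0. Both groups were tight and nearly 1 log2 unit apart (0.97 ± 0.10, adjusted p = 5.09e-06). Abcg5 and Abcg8 form the sterol exporter of the canaliculus: Abcg5 was at 116 ± 12.3 against 49.2 ± 11.3 CPM (1.24 ± 0.15, adjusted p = 0.000114) and Abcg8 at 126 ± 13.6 against 72.2 ± 13.7 CPM (0.80 ± 0.13, adjusted p = 0.00102). These lie close together on chromosome 17, Abcg5 at 84658234 to 84683011 on the minus strand and Abcg8 at 84676302 to 84700333 on the plus strand, and reads were counted by strand. The bile acid sensor Nr1h4 and the reductase Akr1d1 were the remaining higher members (0.47 and 0.47), and Abcb11 the lower one (-0.44). Those 3 calls had adjusted p of 0.0203, 0.0443 and 0.0334 and were each lost on leaving out any 1 of 5 or 6 of the 8 libraries. The synthesis enzymes Cyp7a1 (178 ± 56.4 against 140 ± 31.1 CPM) and Cyp8b1 (306 ± 122 against 513 ± 96.9 CPM, adjusted p = 0.209) did not pass with edgeR. Cyp8b1 passed without olive oil replicate 1 (-1.11, adjusted p = 0.00148), with DESeq2 (adjusted p = 0.0115) and with limma-voom (adjusted p = 0.0371). The count of higher members was 3 without olive oil replicate 1 or 3 or PH day 0 replicate 14, 15 or 16, or with library size scaling. Lower members numbered 2 with DESeq2 and limma-voom, and 0 without olive oil replicate 2 or 3 or PH day 0 replicate 15 or 16.

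Drug metabolism genes pointed the same way. Of 27 tested P450, reductase and regulator genes, 7 were higher in olive oil and none lower (3 higher without olive oil replicate 3, and 4 higher with 1 lower under library size scaling; 1 was also lower with DESeq2, with limma-voom and without olive oil replicate 2 or PH day 0 replicate 13 or 16), with a median of 0.39. Nr1i3, the constitutive androstane receptor that turns on drug-metabolising genes, was at 394, 377 and 474 CPM in olive oil and at 126, 144, 95.8, 66.8 and 84.2 CPM at PH day 0. The lowest olive oil value lay far above the highest PH day 0 value (2.00 ± 0.24, adjusted p = 0.00338). Its sensitive target Cyp2b10 had only 5 counts in all olive oil samples together and 12 in the PH day 0 samples, too few to test, and Cyp3a11, a target of the related receptor PXR, was at 2220 ± 558 against 2049 ± 255 CPM and did not pass. The PXR gene, Nr1i2, was higher (70.2 ± 3.73 against 44.6 ± 8.8 CPM, 0.64 ± 0.14, adjusted p = 0.00758), except without olive oil replicate 3 (0.0663) or in the fit of all 16 samples (0.167).

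Cyp2a5, a coumarin hydroxylase, was at 475, 425 and 596 CPM in olive oil and at 129, 85.2, 160, 125 and 135 CPM at PH day 0 (1.98 ± 0.17, adjusted p = 5e-05). Cyp2a4 (2.12 ± 0.28, adjusted p = 0.00819) and the pseudogene Cyp2a21-ps (2.05 ± 0.21, adjusted p = 4.17e-05) moved with it. These 3 lie on chromosome 7 and are near-identical copies, and reads that match several of them were not counted. Their levels are therefore uncertain, and they may carry the same signal. The same holds for the pseudogene Cyp2d36-ps (13.9 ± 2.98 against 2.27 ± 1.34 CPM). Cyp2e1, the P450 that activates CCl4, was at 6620, 6048 and 7483 CPM against 4197, 4962, 5546, 3798 and 4735 CPM (0.53 ± 0.13, adjusted p = 0.0153). Cyp2e1 no longer passed when olive oil replicate 3 (adjusted p = 0.158) or PH day 0 replicate 15 (0.0508) was omitted, with library size scaling (0.0605) and in the fit of all 16 samples (0.159).

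Ugt1a6a, which joins glucuronic acid to phenols, was at 13.1, 16 and 13.6 CPM in olive oil and at 8.71, 5.24, 5.66, 5.5 and 5.03 CPM at PH day 0 (1.20 ± 0.24, adjusted p = 0.00498). It was 1 of 2 higher members among 20 glucuronosyl- and sulfotransferases, with Sult1a1 (0.39 ± 0.10, adjusted p = 0.0323). In that list the median was 0.28, 10 members had an unadjusted p under 0.05, and DESeq2 and limma-voom called 5 and 3 higher. It had 5 higher members and 1 lower with no filter on low counts. A single higher member was left without olive oil replicate 1 or 3 or PH day 0 replicate 13 or 16, with library size scaling and in the fit of all 16 samples. The glutathione transferase Gstt2 was higher at 63.4 ± 12 against 28.1 ± 7.53 CPM (1.15 ± 0.20, adjusted p = 0.00365). Of 25 genes of glutathione and the oxidant response, Gstt2 and the epoxide hydrolase Ephx1 (0.38 ± 0.10, adjusted p = 0.0319) were higher and Gstm4 was lower (-0.51 ± 0.14, adjusted p = 0.0435). Sult1a1, Ephx1 and Gstm4 each missed the threshold on leaving out 1 of 5 or 6 libraries, olive oil replicates 2 and 3 and PH day 0 replicate 12 or 13 among them, and in the fit of all 16 samples (adjusted p = 0.747, 0.527 and 0.644).

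Among amino acid genes, Slc7a2, the importer of arginine, was at 527, 597 and 610 CPM in olive oil and at 298, 253, 373, 393 and 262 CPM at PH day 0 (0.87 ± 0.13, adjusted p = 0.000702, 0.36 in the fit of all 16 samples). Cbs, which turns homocysteine to cystathionine, was lower at 413 ± 15.4 against 587 ± 34.9 CPM (-0.51 ± 0.10, adjusted p = 0.00365). Bnip3, a mitophagy receptor induced by low oxygen, was higher at 59.2 ± 3.17 against 27.9 ± 8.14 CPM (1.10 ± 0.18, adjusted p = 0.00211). It was the only called gene of 16 in the hypoxia list, where 4.14% of all tested genes were called. The groups did not overlap for these 3 genes.

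Among pericentral genes, active around the central vein, 4 of 18 were higher and none lower, namely Cyp2a5, Cyp2e1, the glutamate transporter Slc1a2 (0.81 ± 0.12, adjusted p = 0.000174, 0.147 in the fit of all 16 samples) and Lect2 (0.55 ± 0.10, adjusted p = 0.00184). The median of the pericentral list was 0.37, with 15 members above 0, and that of the periportal list 0.12. Glul, the glutamine synthetase that defines the innermost pericentral cells, did not differ beyond the spread (763 ± 45.4 against 769 ± 103 CPM, -0.01 ± 0.12). Of 19 periportal genes, 1 was higher (Asl, 0.44) and 1 lower (Cdh1, -0.57), and the periportal P450 Cyp2f2 was at 1438 ± 86.9 against 1535 ± 84.2 CPM. Asl did not pass on leaving out olive oil replicate 1 or 3 or PH day 0 replicate 13 or 14 (0.0577 to 0.141), nor Cdh1 without olive oil replicate 3 (adjusted p = 0.13), and in the fit of all 16 samples neither did (0.708 and 0.0727). Lower periportal members numbered 2 without PH day 0 replicate 13.

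Albumin (Alb) was at 73717, 64907 and 64270 CPM in olive oil and 44152, 50119, 58800, 53387 and 45140 CPM at PH day 0. The groups were apart and the gene passed narrowly (0.43 ± 0.12, adjusted p = 0.0484), but not with library size scaling (adjusted p = 0.206), with upper-quartile scaling (0.0664), in the fit of all 16 samples (0.185) or on leaving out any library but PH day 0 replicate 14 (0.0518 to 0.196). Apoa1 (8213 ± 8.12 against 8171 ± 757 CPM) and transthyretin (Ttr, 6218 ± 700 against 4989 ± 398 CPM) did not pass. Of the hepatocyte transcription factors, Prox1 was higher (118 ± 5.12 against 65 ± 13.7 CPM, 0.86 ± 0.14, adjusted p = 0.000994) and Foxa2 lower: it was at 15.2, 16 and 15.3 CPM in olive oil and at 18.2, 34.4, 37.4, 36.6 and 35.8 CPM at PH day 0, where replicate 12 alone came near the olive oil level (-1.05 ± 0.21, adjusted p = 0.00635). Foxa2 did not pass with limma-voom (adjusted p = 0.0833) or without olive oil replicate 3 (adjusted p = 0.057).

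The protein folding genes of the endoplasmic reticulum mostly leaned lower in olive oil, with few calls. Of 29 tested members of the unfolded protein and integrated stress response list, 3 were lower in olive oil and 1 higher, with a median of -0.20. Changes lay below 0 for 21 members and above 0 for 8. With edgeR 14 had an unadjusted p under 0.05, of which 13 were lower and 1 higher. Hspa5, the chaperone BiP, was at 406 ± 55.8 against 604 ± 74 CPM, without overlap (-0.57 ± 0.12, adjusted p = 0.00629, 0.0548 without olive oil replicate 3). The BiP partner Sdf2l1 was lower (-0.90 ± 0.22, adjusted p = 0.0266), as was the transcription factor Atf5 (-0.72 ± 0.14, adjusted p = 0.00422), whereas Herpud1, of the degradation pathway for misfolded proteins, was higher (382 ± 79.8 against 197 ± 30.4 CPM, 0.96 ± 0.14, adjusted p = 0.000535). Sdf2l1 did not pass with limma-voom (adjusted p = 0.0615) or without olive oil replicate 1 or 3 or PH day 0 replicate 13 (0.0549 to 0.167). The number of lower members was 10 with library size scaling, 8 with DESeq2, 6 and 7 without PH day 0 replicates 12 and 14, and 1 without olive oil replicate 3.

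Endothelial transcripts were lower in olive oil. Of 23 tested liver endothelial genes, 9 were lower and none higher, with a median of -0.67. The summed level of the whole list was 324 to 379 CPM in olive oil and 494 to 635 CPM at PH day 0. In bulk tissue, fewer cells of a type and less RNA per cell cannot be told apart. Kdr, the VEGF receptor 2, was at 21.7, 15.6 and 13.2 CPM in olive oil and at 30.9, 30.3, 38.2, 40.8 and 38 CPM at PH day 0 (-1.08 ± 0.18, adjusted p = 0.000704). Flt4, the VEGF receptor 3, was at 12.5, 6.89 and 6.7 CPM against 17.9, 17.3, 19.4, 19.7 and 22 CPM (-1.15 ± 0.22, adjusted p = 0.00343). All olive oil values of both receptors lay below all PH day 0 values.

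Pecam1, an adhesion molecule of endothelial junctions, was at 7.38, 3.44 and 4.54 CPM against 14.2, 9.11, 18, 11.6 and 20.7 CPM (-1.52 ± 0.30, adjusted p = 0.0049, 0.0515 without olive oil replicate 3). The secreted nuclease Dnase1l3 was at 21.6 ± 5.29 against 40.7 ± 9.41 CPM (-0.92 ± 0.20, adjusted p = 0.0103, 0.0777 without olive oil replicate 3). Not every sinusoidal marker moved by as much: the scavenger receptor Stab2 was at 31.3 ± 5.37 against 39.1 ± 4.36 CPM (-0.32 ± 0.15, adjusted p = 0.271) and the lectin Clec4g at 23 ± 4.02 against 33.5 ± 4.01 CPM (-0.54 ± 0.16, adjusted p = 0.0588). The basement membrane collagens Col4a1 (18.3 ± 4.13 against 37.9 ± 4.77 CPM, -1.05 ± 0.17, adjusted p = 0.00052) and Col4a2 (-0.87 ± 0.19, adjusted p = 0.0106) were the only called members, both lower, of 26 matrix genes. Col4a2 did not pass without olive oil replicate 1 or 3 (adjusted p = 0.0544 and 0.0959). The remaining called members, Tek, Oit3, Gpr182, Ptprb and Ehd3, had changes from -1.30 to -0.64, and each lost its call without olive oil replicate 3. The number of lower endothelial genes was 4 and 2 without olive oil replicates 2 and 3, and 13 with library size scaling.

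Of 6 tested red cell genes, 2 were lower in olive oil with edgeR, with a median of -2.04. The count was 0 without olive oil replicate 1, 2 or 3 and 1 without PH day 0 replicate 12, 13, 15 or 16. It was 4 without PH day 0 replicate 14, with DESeq2 or limma-voom and in the fit of all 16 samples. Hba-a1, an alpha globin gene, was at 90.2, 76 and 73.9 CPM in olive oil and at 355, 315, 173, 456 and 382 CPM at PH day 0 (-2.07 ± 0.32, adjusted p = 0.0179). Its near-identical copy Hba-a2 gave -2.08 ± 0.36 (adjusted p = 0.0306), and the beta globins Hbb-bs (-2.15 ± 0.45, adjusted p = 0.0576) and Hbb-bt (-2.01 ± 0.43, adjusted p = 0.0605) did not pass. PH day 0 replicate 14 had the lowest globin level of its group and still lay above every olive oil liver. All globin genes together took 0.0335, 0.0261 and 0.0267% of counts in olive oil and 0.127, 0.123, 0.0581, 0.182 and 0.144% at PH day 0. The exact two-sided permutation test gave p = 0.0357, the smallest that 56 arrangements allow, and an adjusted p of 0.179 over the 5 shares tested. Alas2, which starts heme synthesis in red cell precursors, was at 138 ± 8.42 against 155 ± 18.9 CPM and did not pass. Hba-a1 missed the threshold on leaving out any olive oil liver (adjusted p = 0.0662 to 0.104) and Hba-a2 without any library but PH day 0 replicate 14 (0.0516 to 0.144). The list summed to 422 to 491 CPM in olive oil and 717 to 1916 CPM at PH day 0, and its part in the other results was not tested.

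**Figure D4:**
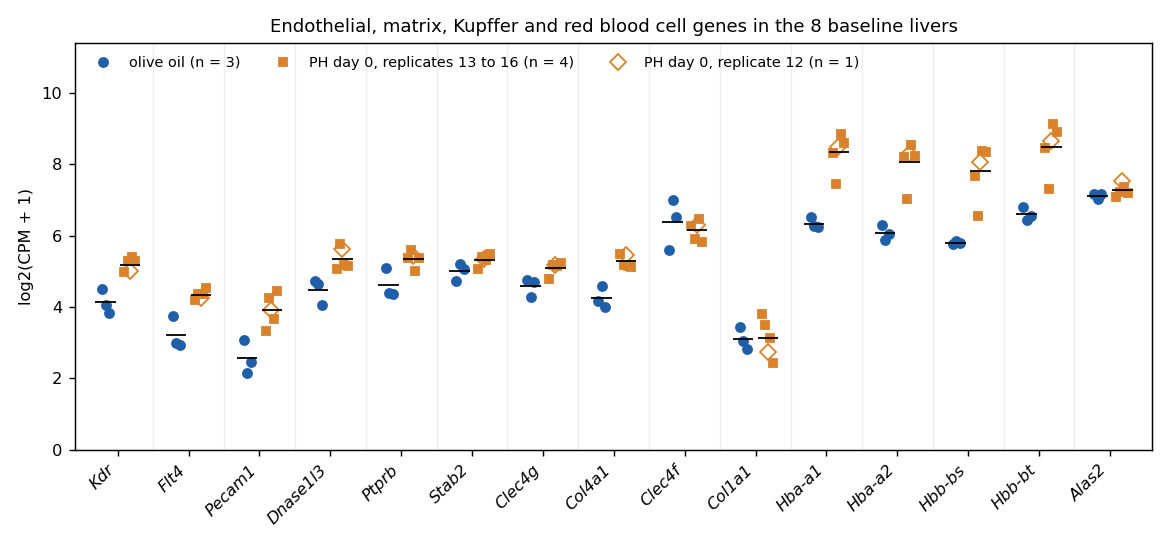
Levels of endothelial (Kdr to Clec4g), basement membrane (Col4a1), Kupffer (Clec4f), fibrillar collagen (Col1a1) and red blood cell genes as log2(CPM + 1) in each of 3 olive oil livers (circles) and 5 PH day 0 livers (squares and open diamond); black bars are group means. Globins and most endothelial genes lie lower in olive oil, and Clec4f, Col1a1 and Alas2 overlap.

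The Kupffer, stellate, monocyte and bile duct lists gave no call with edgeR. None of 14 Kupffer cell genes (1 at an unadjusted p under 0.05), 18 stellate cell genes (4 at an unadjusted p under 0.05) and 5 monocyte genes (0 at an unadjusted p under 0.05) passed, and DESeq2 and limma-voom called 0 in each of these lists. The Kupffer cell lectin Clec4f was at 47.5, 127 and 91 CPM in olive oil and spanned 55.3 to 87.8 CPM at PH day 0, so that the olive oil livers alone covered the whole range. The Kupffer list had 2 higher members without olive oil replicate 1 and 1 without PH day 0 replicate 13, and the monocyte list 1 without olive oil replicate 1. Timd4, a receptor of resident Kupffer cells, also passed with no filter on low counts (0.93, adjusted p = 0.0468). All 4 tested bile duct genes, Sox9, Spp1 and Pkhd1 among them, had values below 0, with a median of -0.70. For 3 of them the unadjusted p was under 0.05, and edgeR, DESeq2 and limma-voom called 0. The bile duct list summed to 74 to 120.1 CPM in olive oil and 99.4 to 206 CPM at PH day 0, and its part in the other results was not tested. Col1a1, the fibrillar collagen of activated stellate cells, was at 7.75 ± 1.97 against 8.25 ± 3.48 CPM. Adipocyte genes summed to 3.65 to 5.3 CPM in olive oil and 5.08 to 8.86 CPM at PH day 0, with Adipoq, Lep, Retn and Cfd at 0, and skeletal muscle genes to at most 1.37 CPM in any of the 8 samples.

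The heat shock, cooling, glucocorticoid and immediate-early lists, on which handling, stress or anaesthesia could act, gave no call with edgeR either. Other stress lists did hold calls, as given above. The unfolded protein list had 1 higher and 3 lower of 29, and the hypoxia list 1 higher of 16. Of 18 heat shock genes, none passed (3 at an unadjusted p under 0.05, 0 with DESeq2 and limma-voom), and the inducible Hspa1b was at 3.92 ± 0.999 against 4.21 ± 2.04 CPM. The co-chaperone Stip1 passed with library size scaling (-0.49, adjusted p = 0.0486) and with no filter (-0.43, adjusted p = 0.0353). Of 7 genes that respond to cooling, none passed (2 at an unadjusted p under 0.05, 1 with DESeq2 and 0 with limma-voom), and the cold-inducible Cirbp was at 17.7 ± 4.36 against 23.2 ± 3.95 CPM. A single cooling gene, the splicing kinase Clk4, passed without PH day 0 replicate 12 (0.49, adjusted p = 0.0405), with DESeq2 (0.0453) and with RLE scaling (0.0496). Of 17 glucocorticoid-induced genes, none passed with edgeR (6 at an unadjusted p under 0.05), but DESeq2 and limma-voom called 3 each, and Fkbp5 passed with no filter (0.62, adjusted p = 0.00922). Tsc22d3, induced by stress hormone, was at 75.2, 105 and 140 CPM in olive oil and at 27.6, 52.4, 44.6, 58.4 and 74.8 CPM at PH day 0. Its groups just failed to meet, and it did not pass with edgeR (1.07 ± 0.34, adjusted p = 0.167). Tsc22d3 did pass with DESeq2 (1.06, adjusted p = 0.0021) and with limma-voom (1.16, adjusted p = 0.0189). The glucocorticoid list had 1 higher member without PH day 0 replicate 12 or 16 and 1 lower member without replicate 13.

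Immediate-early genes, which answer within minutes to injury and growth signals, had a median of -0.56 over 16 tested members. None passed with edgeR, 6 had an unadjusted p under 0.05, all of them lower in olive oil, and DESeq2 and limma-voom called 4 and 1. Egr1 was at 17.8, 6.08 and 4.97 CPM in olive oil and at 37.8, 54.4, 19, 87.8 and 38.7 CPM at PH day 0. All olive oil values lay below all others, and it did not pass (-2.33 ± 0.68, adjusted p = 0.14) except with DESeq2 (adjusted p = 0.00709) or limma-voom (adjusted p = 0.0371). Jund passed with library size scaling (-0.81, adjusted p = 0.0363), with DESeq2 (-0.73, adjusted p = 0.0473) and with no filter (-0.73, adjusted p = 0.00795). Fos was too low for the test, with 11 counts in olive oil and 55 at PH day 0. The list held 2 lower members without PH day 0 replicate 16 and 1 higher without olive oil replicate 3. The summed level of the list was 173 to 242 CPM in olive oil and 286 to 585 CPM at PH day 0.

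The liver makes acute phase proteins such as serum amyloid A in answer to inflammatory signals. Its gene Saa1 was at 129, 4147 and 1691 CPM in olive oil and at 3034, 1414, 75.6, 858 and 538 CPM at PH day 0. Livers with low and with high values stood in both groups, and the change was 0.75 ± 1.30 (adjusted p = 0.849). Lcn2, an iron-trapping protein of inflammation, ran from 7.84 CPM in olive oil replicate 1 to 666 CPM in replicate 2, and from 9.85 CPM in PH day 0 replicate 14 to 374 CPM in replicate 12. The metallothionein Mt1 was highest in the same samples, at 243 CPM in olive oil replicate 2 and 87.4 CPM in PH day 0 replicate 12. Its neighbour Mt2 was at 3.46, 208 and 37 CPM against 5.08, 10.5, 1.23, 4.86 and 1.26 CPM (4.11 ± 1.23, adjusted p = 0.148, 0.0136 with DESeq2). Saa1 and Saa2 are close copies, and reads that match both were not counted, so their levels are uncertain.

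Of 33 acute phase genes, 1 passed, where 4.14% of all tested genes were called. It was the interleukin 6 receptor Il6ra (63.8 ± 12 against 32.3 ± 9.33 CPM, 0.97 ± 0.21, adjusted p = 0.0281). Il6ra did not pass once olive oil replicate 2 or 3 or PH day 0 replicate 15 or 16 was left out (0.0651 to 0.138). The iron hormone Hamp was at 296 ± 110 against 308 ± 31.7 CPM. Among 35 interferon-stimulated genes, 3 were lower in olive oil. The GTPase Ifi47 was at 15.7, 29 and 14.3 CPM against 40.3, 46.2, 39.9, 40.2 and 39.6 CPM (-1.06 ± 0.19, adjusted p = 0.0021). Oasl1 (-0.95, adjusted p = 0.0137) and Dhx58 (-0.76, adjusted p = 0.0294), both of antiviral sensing, were the others, and neither passed without olive oil replicate 3 (adjusted p = 0.124 and 0.202). Dhx58 also did not pass without olive oil replicate 1, PH day 0 replicate 13 or 15 (adjusted p = 0.0516 to 0.0748) or in the fit of all 16 samples (0.0812), and the list held 1 lower member without olive oil replicate 3.

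**Figure D5:**
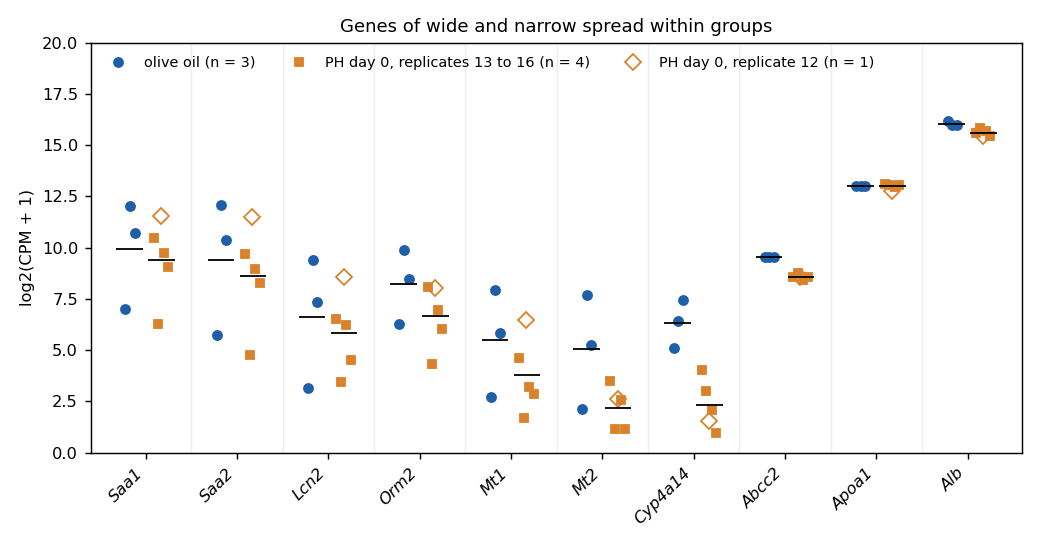
Levels as log2(CPM + 1) of acute phase genes (Saa1 to Orm2), metallothioneins (Mt1, Mt2), Cyp4a14 and abundant liver genes (Abcc2, Apoa1, Alb) in each of 3 olive oil livers (circles) and 5 PH day 0 livers (squares and open diamond); black bars are group means. The inflammatory genes span several log2 units inside both groups, while Abcc2, Apoa1 and Alb cluster tightly.

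Among the genes of largest change outside these lists was Mfsd2a, the transporter of lysophosphatidylcholine that carries docosahexaenoic acid, at 30.7, 22.3 and 21.6 CPM in olive oil and at 0.968, 1.59, 3.2, 7.4 and 3.14 CPM at PH day 0 (2.99 ± 0.46, adjusted p = 0.00581, 0.352 in the fit of all 16 samples). Asap2, a regulator of ARF GTPases, was at 3.69, 4.25 and 1.51 CPM against 29.5, 24.4, 16.2, 18.4 and 16.3 CPM (-2.74 ± 0.31, adjusted p = 2.28e-05). Both genes were well separated. The tubulins Tubb2a (9.51 ± 0.624 against 38.9 ± 13.4 CPM, -2.05 ± 0.26, adjusted p = 0.000225) and Tubb2b (-2.47 ± 0.41, adjusted p = 0.00444) were lower. They are close copies on chromosome 13, and reads that match both were not counted, so their levels are uncertain. Tcf7l1, a repressor of Wnt targets (-1.71 ± 0.36, adjusted p = 0.00629), and Spon2, a secreted matrix protein (-1.52 ± 0.25, adjusted p = 0.000776), were lower as well, and F830016B08Rik was higher (2.22 ± 0.28, adjusted p = 4.17e-05). Serpina6, the blood carrier of corticosteroids, and the potassium channel Kcnk5 were named after their values were seen. Kcnk5 was at 62.4 ± 14.1 against 20.4 ± 2.86 CPM (1.62 ± 0.15, adjusted p = 1.76e-06). Serpina6 was at 335, 287 and 352 CPM against 112, 137, 158, 108 and 111 CPM (1.38 ± 0.12, adjusted p = 1.66e-06, 0.198 in the fit of all 16 samples).

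Cell division and the general machinery of the cell showed few calls, where 4.14% of all tested genes were called. None of the 25 genes of G2 and mitosis reached the level for testing, and the list summed to 12.2 to 18.8 CPM in olive oil and 10 to 34.3 CPM at PH day 0. Of 26 replication genes, the thymidine kinase Tk1 was the 1 called member, higher in olive oil (20.2 ± 3.48 against 9.69 ± 2.59 CPM, 1.07 ± 0.22, adjusted p = 0.00581, 0.0754 without olive oil replicate 3). Of 17 G1 regulators, Rbl1, with low counts, was lower (-2.21, adjusted p = 0.047). Its call was lost with limma-voom (0.142) and on leaving out olive oil replicate 1, 2 or 3 (0.114 to 0.201). Of 58 ribosomal protein genes, Rpl37 was higher (0.57, adjusted p = 0.0279). Its call was lost with library size scaling (0.0641) and on leaving out olive oil replicate 1, 2 or 3 (0.0624 to 0.128). None of 51 nuclear genes of the respiratory chain passed (2 at an unadjusted p under 0.05, 0 with DESeq2 and limma-voom), nor any of 31 proteasome genes with edgeR (2 at an unadjusted p under 0.05, 0 with DESeq2 and limma-voom). The proteasome subunit Psmd11 passed with library size scaling (-0.46, adjusted p = 0.0325), upper-quartile scaling (-0.40, adjusted p = 0.0479) and no filter (-0.39, adjusted p = 0.0472). Mitochondrial transcripts took 4.29 ± 0.451% of counts in olive oil and 4.08 ± 0.462% at PH day 0 (exact two-sided permutation p = 0.607, adjusted 0.786). Of 13 listed genes of the mitochondrial genome, 8 had enough counts to test. All 8 changes lay above 0, and none passed with edgeR. The gene mt-Nd6 passed with DESeq2 (0.90, adjusted p = 0.0125) and limma-voom (1.01, adjusted p = 0.0154). It also passed with no filter (0.91, adjusted p = 0.000468) and without PH day 0 replicate 16 (1.14, adjusted p = 0.0012). Summed over samples, mt-Co2 had 0 counts in olive oil and 3 at PH day 0, and mt-Atp6 had 3 and 11. The mitochondrial share therefore rests on part of that genome. Albumin took 6.53 ± 0.79% against 5.15 ± 0.836% (exact two-sided permutation p = 0.107, adjusted 0.268). Neither share differed beyond the spread between samples.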

How the data were processed

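Raw counts of reads per gene were deposited for each sample. Per the file headers, they were made with featureCounts 1.6.2 over exons of Ensembl release 95 on GRCm38, counting by strand in the reverse setting, with no option to count reads that match several places, which bears on near-identical genes. STAR 2.5.1 and Subread stand in the submitters' processing notes. All 16 libraries share 1 sequencing lane. Of 54838 genes, 54809 matched a symbol. The 3 olive oil and 5 PH day 0 samples were compared with edgeR 4.0.16 in R 4.3.3 (TMM, quasi-likelihood test, robust, no covariate). Genes passed a filter with a minimum count of 10 and a total of 15, and p-values were adjusted over all tested genes at a threshold of 0.05. Pairs of samples within a group differed beyond counting noise, with a chi-square of 7.53 to 23.8 for each degree of freedom, so none was counted as a duplicate, which does not show that they came from separate animals. Alternatives were library size, RLE and upper-quartile scaling, DESeq2 1.42.0, voom in limma 3.58.1, other filters and thresholds, all 16 samples in 1 fit, and each library left out in turn. Scripts were tested on simulated data. In simulated counts of this design, for genes with an average above 5 CPM, edgeR recovered 16 of 67 changes of 1.5-fold. It recovered 51 of 67 changes of 2-fold and 65 of 66 of 4-fold. A gene that did not pass may therefore still differ moderately.

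The members and all 61 gene lists were chosen with earlier results of these data known. Genes were named from a fixed panel, as the 10 largest called changes in each direction with a mean of at least 5 CPM and no overlap, as the 3 called members of smallest adjusted p in a list, or because they made up a count of at most 5. The ROR core was added to the promoter search after the results were seen. The Per2 promoter was not used. Some genes are not reported here. CPM are not divided by gene length, so levels are compared within a gene only. Depth sets a floor of 3 counts per library, which covers counting error alone.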

Additional observations from a re-analysis of the deposited data

Results flagged for a closer look

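Of 146 genes whose 5 PH day 0 values were examined, 15 had 1 liver far from the other 4 of its group, by a gap that chance gives in about 1 in 20 groups. At that rate some of the 15 would arise by chance, and genes that vary together are not separate cases. Of the 15, 11 were in replicate 12. Its high values were 24.81 CPM for the clock activator Arntl and 52.52 CPM for the clock repressor Nfil3. In lipid genes they were 604.4 CPM for the elongase Elovl3 and 273.6 CPM for the acyltransferase Agpat2. In acute phase and stress genes they were 2844 CPM for Saa2, 374.1 CPM for Lcn2 and 87.37 CPM for Mt1, and the glucuronosyltransferase Ugt1a6a was at 8.713 CPM. Its low values were 39.69 CPM for the clock repressor Nr1d2, 18.15 CPM for the transcription factor Foxa2 and 49.74 CPM for the chaperone Hspa8. Replicate 13 stood apart with 50.34 CPM for Ppara, 46.24 CPM for the GTPase Ifi47 and 120 CPM for the adhesion protein Cdh1. Replicate 14 stood apart with 8.862 CPM for the fatty acid binding protein Fabp4.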

How the results depend on the processing

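No paired analysis was possible because the olive oil and PH day 0 samples share no replicate numbers. The 445 called genes (253 higher, 192 lower) became 777 (415 and 362) with no filter on low counts, 287 (141 higher) with all 16 samples in the fit, 204 (133 and 71) at an adjusted p under 0.01 and 127 (68 and 59) with a change of at least 1, the last 2 by construction; library size scaling called 166 higher. For the others the cause was not tested. Leaving out 1 library gave 181 to 447 called, 117 to 260 higher and 64 to 187 lower, each lowest without olive oil replicate 3. Of the named genes, 11 changed sign under some alternative, and none of them was called. With limma-voom Col1a1 was 0.011 and Hspa1b 0.063. On leaving out 1 library, changes ranged from -0.038 to 0.61 for Clec4f, -0.30 to 0.14 for Col1a1, -0.088 to 0.28 for Cyp3a11, -0.058 to 0.039 for Glul, -0.24 to 0.22 for Hamp, -0.29 to 0.16 for Hspa1b, -0.47 to 2.48 for Lcn2, -0.70 to 0.15 for Nfil3, -0.38 to 1.46 for Saa1, -0.40 to 2.17 for Saa2 and -0.63 to 0.021 for Sqle. The share of counts of the 20 most abundant genes differed by -0.211 to 1.44 percentage points. Genes near the floor of 3 counts, such as Ciart and Arntl, are limited by depth.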
